A study of Homo sapiens with 10 samples.

Results

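Transcripts were compared between MM.1S cells depleted of HDAC3 and MM.1S cells that received a control hairpin. MM.1S is a human multiple myeloma cell line, a culture of malignant plasma cells. Every group was grown in medium with 10% fetal bovine serum, infected with a lentivirus that carried a short hairpin RNA, and taken for total RNA at 48 h. The control hairpin targets luciferase (shLuc), a gene human cells do not have, and 2 hairpins targeted HDAC3 (shHDAC3#1 and shHDAC3#2). The comparison used 6 of the 10 arrays in the series, namely 4 arrays of HDAC3 knockdown, 2 for each hairpin, against 2 arrays of shLuc, and it was chosen by the array titles. The remaining 4 arrays, of DNMT1 knockdown with hairpins shDNMT1#1 and shDNMT1#2, entered the model for its estimate of the spread and are used below to show where HDAC3 knockdown differed from another knockdown. The luciferase control was a single hairpin, and whether replicate arrays stand for separate cultures is not given by the labels; every p-value here therefore rests on a spread between arrays that could be technical.

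HDAC3 is a class I histone deacetylase. It works within the NCoR and SMRT co-repressor complexes, whose core also holds TBL1X or TBL1XR1 and GPS2, and it is brought to DNA by nuclear receptors and other repressors, where removal of acetyl groups from histones goes with lower transcription. Myeloma cells are secretory cells that make large amounts of immunoglobulin, and they depend on protein folding, glycosylation, vesicle transport and protein breakdown. Cell cycle, endoplasmic reticulum and antigen presentation genes were set aside here and the account turns on other functions.

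The promoters of 4 genes that led the increases and decreases with both hairpins are shown first, since they introduce the genes on which the results turn. They are the 2 genes in each direction that ranked highest among those with an entry in the RefSeq promoter table of GRCh38.p14. Each sequence covers the 250 bases before the start in the gene's first entry there, 5′ to 3′ on the gene's own strand. OSTM1 lies at chr6:108074742-108074991 on the minus strand, C11orf54 at chr11:93741422-93741671 on the plus strand, THEMIS at chr6:127855189-127855438 on the minus strand and TMEM45A at chr3:100492369-100492618 on the plus strand. Capitals mark matches on either strand to any of the 10 motifs searched: the TATA box as TATAAA, the NF-Y box as CCAAT, the GC box as GGGCGG, the E-box as CACGTG, the cyclic AMP element as TGACGTCA, an ETS site as CCGGAAGT, the NRF1 palindrome, a nuclear receptor site as AGGTCA, an E2F site as TTTCGCGC and a STAT-like site as TTCCTAGAA.
OSTM1: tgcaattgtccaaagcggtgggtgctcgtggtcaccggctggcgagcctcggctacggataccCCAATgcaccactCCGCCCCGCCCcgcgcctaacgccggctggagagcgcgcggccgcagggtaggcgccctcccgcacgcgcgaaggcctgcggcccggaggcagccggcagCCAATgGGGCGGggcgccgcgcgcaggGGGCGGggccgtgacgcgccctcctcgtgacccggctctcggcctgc
C11orf54: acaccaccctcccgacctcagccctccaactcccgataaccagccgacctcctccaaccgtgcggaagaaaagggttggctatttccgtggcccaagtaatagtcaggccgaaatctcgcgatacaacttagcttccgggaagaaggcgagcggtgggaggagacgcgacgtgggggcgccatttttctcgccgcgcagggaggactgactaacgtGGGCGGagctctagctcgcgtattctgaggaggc
THEMIS: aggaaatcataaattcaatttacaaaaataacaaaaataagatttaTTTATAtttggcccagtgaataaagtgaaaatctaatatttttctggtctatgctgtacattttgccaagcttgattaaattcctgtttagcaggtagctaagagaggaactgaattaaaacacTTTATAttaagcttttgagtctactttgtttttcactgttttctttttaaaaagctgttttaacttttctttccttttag
TMEM45A: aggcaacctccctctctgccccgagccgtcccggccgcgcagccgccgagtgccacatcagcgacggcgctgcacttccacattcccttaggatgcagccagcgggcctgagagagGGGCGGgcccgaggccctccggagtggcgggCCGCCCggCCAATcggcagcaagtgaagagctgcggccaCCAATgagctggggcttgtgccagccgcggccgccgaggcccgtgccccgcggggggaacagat
The OSTM1 stretch was 76.4% G or C with 4 matches to GGGCGG and 2 to CCAAT. C11orf54 had 1 match to GGGCGG. The THEMIS stretch was 26.8% G or C and held 2 matches to TATAAA, whereas that of TMEM45A, at 72.8%, held 2 each of GGGCGG and CCAAT. These 4 stretches thus differed in composition, and which start MM.1S cells use for each gene was not tested.

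A promoter entry was found for 15384 genes, 77.8% of those measured. Over windows of 300 bases (250 before to 50 after the start), GGGCGG was present in 58.9% of all promoters, in 65.2% of those of genes with a mean signal of at least 5, in 71.6% of the 1120 promoters of genes that fell with both hairpins and in 61.1% of the 36 of genes that rose with both. CCGGAAGT, the usual letters of an ETS site, was present in 6.25%, 7.31%, 10.4% and 8.33% of the same sets. TATAAA was present in 8.76%, 6.73%, 5.89% and 8.33%. AGGTCA, letters bound by many nuclear receptors, was present in 11.5%, 11%, 8.3% and 5.56%. These are descriptions of letters in a window, and no difference between the sets was tested.

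The arrays differed in quality measures that follow the groups. The SD of the log2 values over genes was 1.943 and 1.929 in the shLuc arrays and 1.856 to 1.906 in the HDAC3 arrays. The 3′ probe set of ACTB exceeded the 5′ one, a gap that widens as RNA degrades, by 0.98 and 1.02 in shHDAC3#1 against 0.70 and 0.75 in shLuc and 0.74 in both shHDAC3#2 arrays. Array shLuc replicate 1 stood apart from its partner in relative log expression, with an interquartile range of 0.299 against 0.144. Replicates of a group correlated with r from 0.9954 to 0.9963 and arrays of different groups with r from 0.9748 to 0.9918, over genes. All 12 plasma cell and MM.1S identity markers had a mean of at least 5, led by JCHAIN at 12.9, and their mean level was 10.2 in both shLuc arrays, 9.80 to 9.95 in shHDAC3#1 and 9.98 to 10.1 in shHDAC3#2. Of these 12 markers 1 was called higher and 6 lower in the mean of the hairpins, against 3.96% and 15.3% of all genes. By the rule for moving alike given below 1 fell and 0 rose with both hairpins, and 9 differed between the hairpins. Mean levels of T cell, myeloid, natural killer and stromal markers lay between 4.86 and 6.56 in the 6 arrays with no member called. In the epithelial and packaging cell list 1 of 6 rose (KRT19, 0.31), and in the erythroid list 2 of 4 fell (HBB, -0.37, and HBD, -0.33, the latter at 8.20 and 8.43 in shHDAC3#2 and 9.46 and 9.68 in shHDAC3#1 against 9.27 in both shLuc arrays). The part of these differences in the results below was not tested except where values without an array or hairpin are given. In bulk RNA, fewer cells of a type and less RNA per cell cannot be told apart.

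HDAC3 itself was read at log2 signals of 7.26 and 6.61 in shLuc, 5.97 and 5.72 in shHDAC3#1, and 5.83 and 5.52 in shHDAC3#2. All 4 knockdown arrays lay below both controls, and the controls differed from each other by more than any pair of knockdown arrays. The mean change was -1.18 ± 0.16 on the log2 scale (SE, n = 4 against 2; limma, adjusted p = 1.17e-05), with -0.85 when shLuc replicate 1 was left out and -1.50 when shLuc replicate 2 was left out. Treating the hairpin as a random block counted the variation between hairpins as error, that between the DNMT1 hairpins included. HDAC3 was then not called (limma, adjusted p = 0.108). A call lost in that setting need not mean that the HDAC3 hairpins differed. A single probe set read the gene, of a kind that can bind related transcripts.

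Most genes that responded to HDAC3 knockdown fell, and among those that moved the same way with both hairpins nearly all fell. Of 19775 genes, 3801 (19.2%) were called at an adjusted p under 0.05 in the mean of the hairpins, 784 higher (3.96%) and 3017 lower (15.3%). A gene was counted as moved alike when both hairpin changes were called with the same sign and all 4 knockdown arrays lay on the same side of both shLuc arrays. This held for 1350 genes (6.83%), of which 50 rose (0.253%) and 1300 fell (6.57%). The smaller of the hairpin changes reached 2-fold for 2 of the genes that rose and 43 of those that fell, and 1.5-fold for 8 and 383. Both hairpin contrasts share the shLuc arrays, so the count describes these arrays and is no repeat. Of the 1350 genes, 147 belonged to the cell cycle, endoplasmic reticulum and antigen presentation lists set aside, and all 147 fell.

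The hairpins were not equivalent. With shHDAC3#1, 4834 genes (24.4%) were called, 1549 higher and 3285 lower, and with shHDAC3#2, 2146 (10.9%), 259 higher and 1887 lower. The direct difference between the hairpins was called for 2492 genes (12.6%), 742 higher with shHDAC3#1 and 1750 higher with shHDAC3#2, and 78 genes were called in opposite directions by the hairpins. Of the genes called in the mean, 2451 did not meet the rule for moving alike, and 386 of the 1350 that did still differed in size between hairpins. With the hairpin as a random block, whose error also holds the gap between the DNMT1 hairpins, 73 genes remained called. Of these 1 was higher and 72 lower, and all 73 were among those moved alike. At the threshold for moving alike, KLF12, EFCAB14 and MYL12A lay just inside (higher adjusted p of the hairpins 0.0498, 0.0497 and 0.0497) and COMMD10, CISD2 and GNAS just outside (0.05003, 0.05003 and 0.0503).

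**Figure D1:**
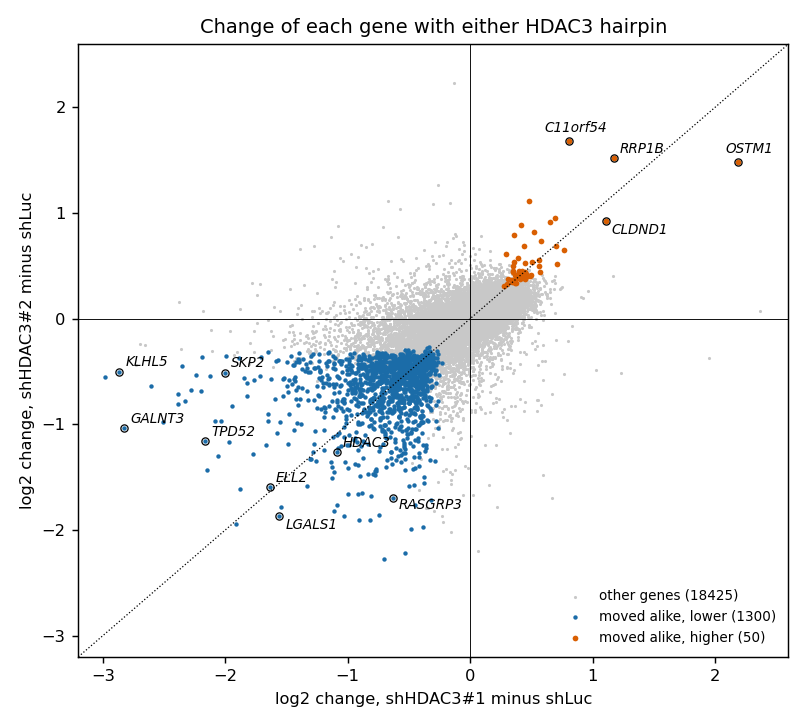
Each point is a gene, with its log2 change from shLuc with shHDAC3#1 on the horizontal axis and with shHDAC3#2 on the vertical axis; 1300 genes moved alike lower (blue), 50 moved alike higher (orange) and the dotted line marks equal change. The blue genes spread widely to the left and below the line, so that KLHL5 and GALNT3 fell more with shHDAC3#1 and RASGRP3 more with shHDAC3#2, while few genes rose with both.

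The excess of falls went with how bright a gene was and with the scaling. In genes with a mean log2 signal of 9 to 10 the median change was -0.26, with 20.4% of 538 genes falling alike, whereas in genes at 5 to 6 it was 0.08, with 3.05% of 3372 falling alike. After a further quantile normalization, which forces the same distribution on every array, the medians of the same classes were 0.01 and 0.05. That scaling gave 1955 higher and 2451 lower genes, a share of 55.6% lower in place of 79.4%, and 246 higher and 915 lower genes moved alike; 44 of the 50 and 895 of the 1300 kept their call. Centring arrays on their medians gave a share of 88.7% lower. Without shLuc replicate 1 there were 43 higher and 1367 lower genes, and 15 and 471 moved alike. The median of all genes was 0.05, and no scaling moved it by more than 0.1.

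**Figure D2:**
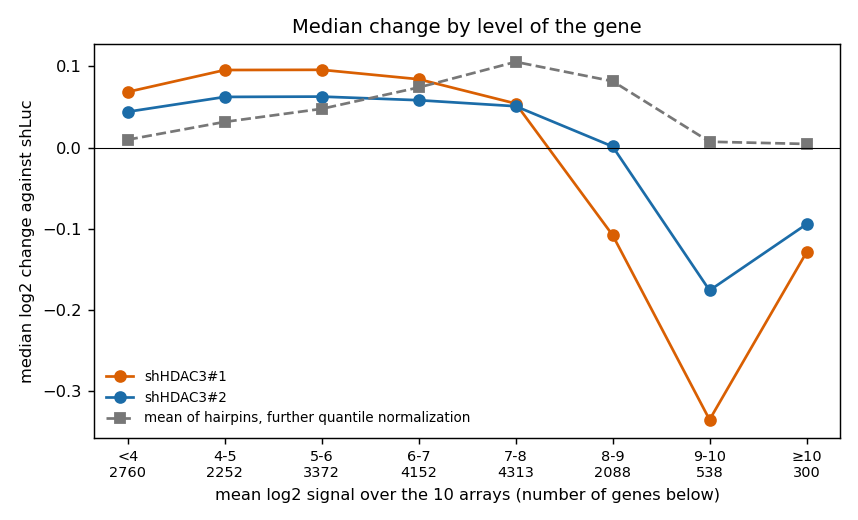
The median log2 change from shLuc is shown for genes grouped by mean log2 signal over the 10 arrays, for each hairpin and for the mean of the hairpins after a further quantile normalization; the number of genes stands below each group. Changes lay near 0 below a signal of 8, fell to -0.34 with shHDAC3#1 and -0.18 with shHDAC3#2 at 9 to 10, and did not fall below 0 after quantile normalization.

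Among the genes that rose with both hairpins, OSTM1 and RRP1B stood out. OSTM1, a partner of the lysosomal chloride transporter ClC-7, was at 3.86 and 3.97 in shLuc, 5.94 and 6.27 in shHDAC3#1 and 5.24 and 5.56 in shHDAC3#2, so that the groups did not overlap and shLuc was near background. All 4 knockdown arrays lay above both controls for 22.1% of all genes, so that an absence of overlap alone is common. Its change was 1.84 ± 0.13 (SE; limma, adjusted p = 2.69e-09), and its 3 other probe sets read 0.94, 0.33 and 1.00. RRP1B, a nucleolar protein of ribosome biogenesis, was at 8.19 and 8.03 in shLuc against 9.15, 9.41, 9.55 and 9.71 in the knockdown arrays. It was the 1 increase that remained called with the hairpin as a random block, although its dimmer probe set read 0.16 against 1.35 for the brighter. C11orf54 rose from 5.72 and 5.65 to 6.46 and 6.52 with shHDAC3#1 and further, to 7.29 and 7.44, with shHDAC3#2, and a second bright probe set read 1.17 beside 1.24.

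Several membrane and signalling genes followed. CLDND1, a claudin-domain membrane protein, was at 7.79 and 7.49 in shLuc and 8.55 to 8.82 in knockdown, a 2.02-fold rise that a second probe set matched (1.01 and 1.09). PALS1, a scaffold of the apical polarity complex, was at 5.32 and 5.57 against 6.07 to 6.72, with a dimmer probe set at 0.18. WASF3, which activates the Arp2/3 complex in actin assembly, went from 4.95 and 4.87 to between 5.57 and 5.64. RNF149, a membrane ubiquitin ligase, was at 7.37 and 7.46 in control arrays and 8.07 to 8.45 after knockdown. DUSP5, the nuclear phosphatase of ERK, rose by 0.48 with shHDAC3#1 and 1.11 with shHDAC3#2. IMPDH1, an enzyme of guanine nucleotide synthesis, was at 7.85 and 7.96 against 8.34 and 8.52 with shHDAC3#1 and 8.75 and 8.69 with shHDAC3#2. HSPE1, the mitochondrial co-chaperonin, rose by 0.66 ± 0.08 and LAPTM4A, a lysosomal membrane protein, by 0.61 ± 0.09. The repressor ZBTB18 (0.56) and PRRT2 (0.53) were no longer called without shLuc replicate 1. CHRM3, the muscarinic receptor, rose by 0.49 while none of its 5 dimmer probe sets read above 0.37. MALAT1, a nuclear long noncoding RNA, rose by 0.71 at its brightest probe set, and its 11 others read 0.06 to 0.87.

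Among the genes that fell with both hairpins THEMIS and ELL2 ranked first. THEMIS, an adaptor of lymphocyte receptor signalling, was at 6.16 and 5.85 in shLuc, 4.23 and 4.02 in shHDAC3#1, and 4.13 and 4.66 in shHDAC3#2. All 4 knockdown arrays lay below both controls for 15.8% of all genes. ELL2, an elongation factor that in plasma cells favours the secreted form of immunoglobulin mRNA, fell from 8.47 and 8.22 to between 6.63 and 6.87, and its 3 other probe sets read -1.24, -0.22 and -1.16. LGALS1 (galectin-1) was at 10.38 and 10.37 against 8.76 and 8.87, and 8.34 and 8.67. ANXA2, a calcium-dependent membrane protein used in adhesion, was at 10.08 and 10.01 against 8.37 to 8.77; 3 probe sets read -1.46, -1.38 and -1.39, and the other, which alone is not of a kind prone to cross-hybridize, read 0.30. These genes left a gap between control and knockdown arrays on their leading probe sets, which the rule for moving alike requires. ANXA2 had a probe set that moved the other way.

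Of the other leading decreases, ANP32E, the chaperone that removes the histone variant H2A.Z, was at 9.72 and 9.68 in shLuc, 7.53 and 7.58 in shHDAC3#1, and 8.16 and 8.39 in shHDAC3#2, and its dimmer probe sets read -1.12 and -1.61. NDFIP2, an adaptor of NEDD4-type ubiquitin ligases, was at 8.46 and 8.23 against 6.52 to 7.07. APOBEC3B, a cytidine deaminase that can mutate DNA, was at 9.41 and 9.27 against 7.67 and 7.69, and 8.09 and 8.19. MAL2, a protein of transcytosis, was at 8.69 and 8.6 against 7.20 to 7.44. PLOD2, a lysyl hydroxylase of collagen, was at 8.40 and 8.05 against 6.89 to 7.04, with a second probe set at -1.66. GCH1, which starts the synthesis of tetrahydrobiopterin, was at 7.31 and 7.17 against 5.74 and 5.76, and 5.87 and 6.24. TMEM45A (-1.67), SUCO (-1.32), the epithelial splicing regulator ESRP1 (-1.31), NPNT, which encodes the matrix protein nephronectin (-1.23), and TEX9 (-1.21) completed the 15. NPNT and ESRP1 had dimmer probe sets at -0.01 and -0.56. With the hairpin as a random block 13 of these 15 decreases remained called, LGALS1 and TEX9 being the exceptions, against 1 of the 15 leading increases. LGALS1 (-1.56 with shHDAC3#1 and -1.87 with shHDAC3#2) and TEX9 (-1.19 and -1.24) fell by like amounts with either hairpin. The error in that setting also holds the variation between the DNMT1 hairpins. All these genes were ranked by the smaller hairpin change in the same arrays, which favours genes on which the hairpins agree. Most of the leading increases were also smaller than any of these decreases. The counts of 13 and 1 are therefore a description and no independent support.

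**Figure D3:**
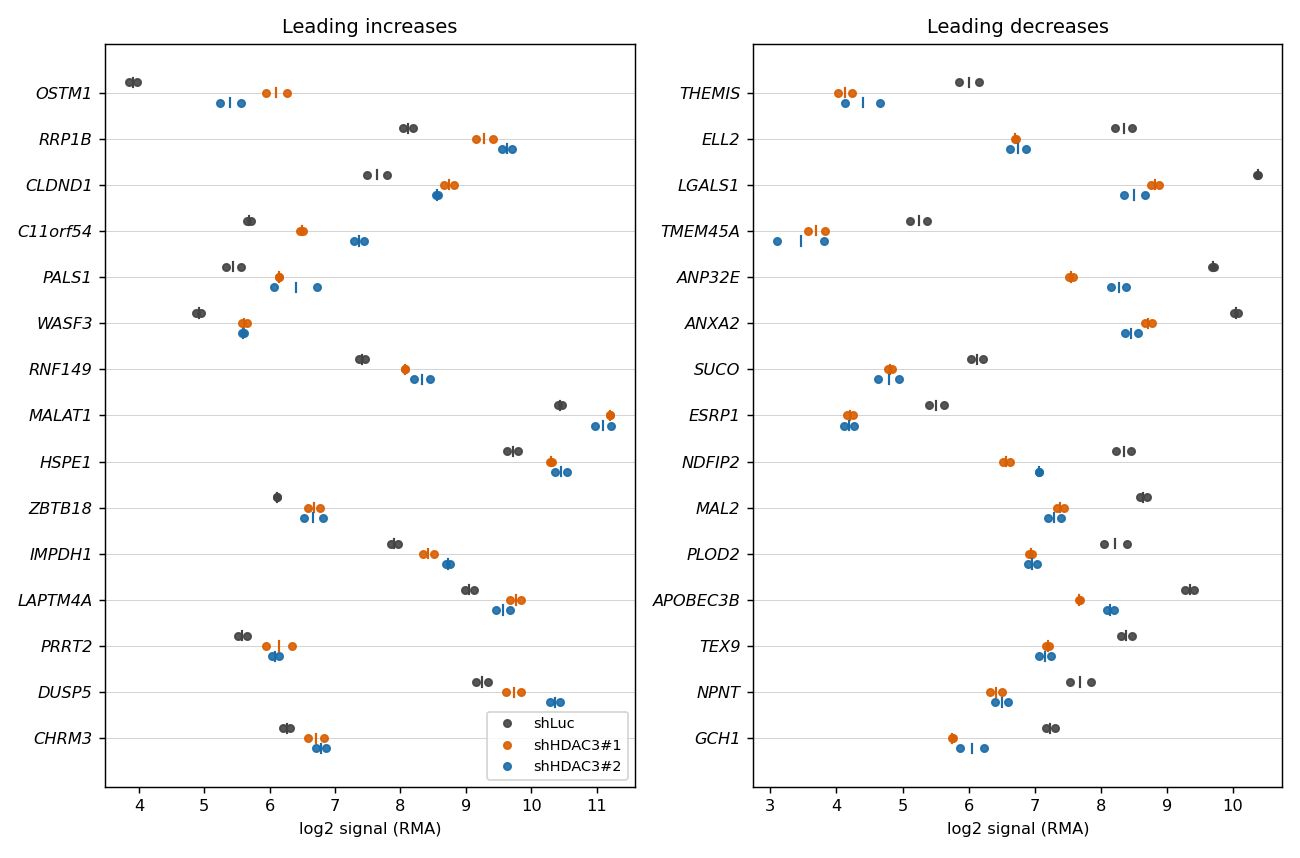
Log2 signals of the 15 leading increases (left) and 15 leading decreases (right) are shown for each array of shLuc (grey), shHDAC3#1 (orange) and shHDAC3#2 (blue), with a tick at each group mean. No knockdown array overlaps a control array, which the rule that selected these genes requires. OSTM1 moved from 3.86 and 3.97 in shLuc to 5.24 or more, and LGALS1 from 10.38 and 10.37 to 8.87 or less.

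Reading genes through several probe sets also gave more falls than rises, in the same arrays and scaling. The count took in bright probe sets only and was not repeated after quantile normalization. Of 6516 genes with at least 2 probe sets at a mean of 5 or more, all such probe sets were lower at an unadjusted p under 0.05 for 774 (11.9%) and higher for 178 (2.73%), while 305 genes had bright probe sets in opposition. TPD52, a vesicle-trafficking protein often raised in tumours, fell with all 5 of its probe sets (-1.66, -1.91, -1.74, -1.50 and -1.57), from 10.03 and 9.90 to 7.91 and 7.69 with shHDAC3#1 and 8.80 and 8.81 with shHDAC3#2. CORO1C, an actin-binding coronin, read -1.33 and -1.31 on its 2 probe sets. FIGNL1, an AAA ATPase of homologous recombination, read -1.12 and -0.90, HEMGN, a haematopoietic nuclear protein, -1.13 and -0.70, and the calcineurin regulator RCAN3 -1.26 and -0.34. In the other direction, IL21R, the receptor of interleukin-21, read 0.56, 0.42 and 0.63, and RANBP1, a partner of the transport GTPase RAN, 0.44, 0.23 and, dimmer, 0.18. MED20 (0.34 and 0.61) and CERCAM (0.32 and 0.25) were smaller. IL21R, MED20 and CERCAM lost their call without shLuc replicate 1, and MED20 also without shHDAC3#1 replicate 1.

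The remaining functions were read through 31 lists with 1628 of 1770 entries measured. For each list the members called in the mean of the hairpins and those moved alike are counted beside all genes, of which 15.3% fell, 3.96% rose and 6.57% fell alike. A few genes outside the naming rule are named where a list had few members in a direction, and these were chosen after their values were seen. The median signal of every list, from 6.61 to 9.94, was above the 6.39 of all genes; the part of this in their counts was not tested beyond the quantile-normalized values.

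Part of the actin cytoskeleton genes fell with both hairpins. Of 79 measured, 38 fell and 4 rose, and 21 fell alike while 1 rose alike, with a median of -0.24. CORO1C led, followed by LCP1, the leukocyte actin bundler plastin-2 (9.76 and 9.58 in shLuc, 8.85 and 9.02 in shHDAC3#1, 8.89 and 8.93 in shHDAC3#2; -0.75 ± 0.09) and MYL12B, a regulatory light chain of non-muscle myosin (9.37 and 9.33 against 8.40 to 8.76; -0.76 ± 0.10). WASF3 rose, as did CFL2 (0.79), TPM2 (0.32) and TWF2 (0.23), none of the last 3 called with shHDAC3#2. After quantile normalization 31 fell and 10 rose, without shLuc replicate 1 the counts were 22 and 2, and with shHDAC3#2 alone 31 and 2. Those that fell alike numbered 12 after quantile normalization and 9 without shLuc replicate 1.

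Adhesion genes fell in part. Of 59, 19 fell, 2 rose (CCR2, 0.61, and ITGA8, 0.29, neither called with shHDAC3#2) and 9 fell alike, while the list's median was -0.01. The integrin subunits ITGA4 and ITGB1, which together form the VLA-4 receptor for VCAM1 and fibronectin, were at 9.07 and 8.77 against 7.81 to 8.32, and at 9.35 and 9.13 against 8.28 to 8.58. ITGA4 fell on all 4 probe sets (-0.71 to -0.93), and ITGB1 on its 3 bright ones (-0.78, -0.64 and -0.49). LGALS3 (galectin-3) fell by 0.74, with a dim probe set at 0.18. The lower members thus included both chains of an adhesion receptor, while 38 of the 59 were not called. Leaving out shLuc replicate 1 gave 12 falls and 1 rise, and with shHDAC3#2 alone 12 fell and 0 rose.

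Vesicle traffic genes had as many members falling alike as the actin list. Of 82 RAB GTPases and endosomal sorting genes, 35 fell and 2 rose (RAB6A, 0.42, and RAB29, 0.31, neither called with shHDAC3#2), and 21 fell alike. RAB4A, which governs fast recycling from early endosomes, was at 8.06 and 7.88 in shLuc against 6.55 and 6.57, and 6.93 and 7.04; its 3 probe sets read -1.20, -0.76 and -0.44, and it remained called with the hairpin as a random block. VPS36 and VPS37A, subunits of the ESCRT-II and ESCRT-I complexes that sort ubiquitinated cargo, were lower with both hairpins and more so with shHDAC3#2 (-0.88 and -1.65; -0.78 and -1.44). RAB28 fell by 0.76 at its brightest probe set, but 2 dimmer ones, at means of 6.8 and 6.2, read 0.08 and 0.00. After quantile normalization 28 fell and 7 rose, without shLuc replicate 1 22 and 0, and with shHDAC3#2 alone 24 and 1. Those that fell alike numbered 13 and 9 under the first 2 of these settings.

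Lysosomal genes moved both ways. Of 59, 22 fell and 4 rose, and 13 fell alike while OSTM1 and LAPTM4A rose alike. The cysteine protease CTSO (7.5 and 7.19 against 6.35 to 6.57; -0.88 ± 0.11), the glucuronidase GUSB (9.62 and 9.57 against 8.15 and 8.20, and 8.79 and 9.04; a dimmer probe set at 0.16) and the membrane protein LAMP2 (8.23 and 8.02 against 7.23 to 7.51) were among the falls. The other increases, SMPD1 (0.27) and CLCN7 (0.23), the gene of the ClC-7 transporter that OSTM1 accompanies, were called in the mean and not with shHDAC3#2. The list's median was -0.32 with shHDAC3#1 and 0.01 with shHDAC3#2, for which 17 fell and 2 rose. After quantile normalization 19 fell and 9 rose, and without shLuc replicate 1 14 fell and 2 rose, with 8 and 6 falling alike. In the autophagy list of 37, 10 fell and 1 rose (ATG16L1, 0.31), and 4 fell alike. These were TMEM41B, a lipid scramblase of autophagosome formation (-0.77, second probe set -0.74), the cargo receptors OPTN (-0.65, second probe set -1.04) and TAX1BP1 (-0.56), and GABARAPL2 (-0.42), which lost its call after quantile normalization (adjusted p = 0.0589) and without shLuc replicate 1. Without that array 5 of the list fell and 0 rose, and with shHDAC3#2 alone 7 fell and 2 rose.

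Genes of sugar transfer fell in smaller numbers, with large single changes. Of 37 genes of O-glycosylation and sugar nucleotides, 10 fell, 1 rose (GMDS, 0.31) and 6 fell alike. GALNT3, which starts mucin-type chains, was at 6.58 and 6.39 in shLuc, 3.53 and 3.78 in shHDAC3#1, and 5.37 and 5.53 in shHDAC3#2. UAP1, which makes UDP-N-acetylglucosamine, was at 9.86 and 9.72 against 7.37 and 7.19, and 8.74 and 8.88. For both the groups stood in the order shLuc, shHDAC3#2, shHDAC3#1 without overlap. UGP2, which makes UDP-glucose, fell alike in size (-0.81 and -1.01) and remained called with the hairpin as a random block, but its probe set is prone to cross-hybridize and the other, at 3.1, read 0.00. GALNT7 fell by 0.72, with a second probe set at -0.67. Of 30 genes of N-glycan processing in the Golgi, 8 fell, 1 rose (ST3GAL4, 0.30) and 4 fell alike: B3GNT2 (-1.04, others -0.84 and -0.05), the polysialyltransferase ST8SIA4 (-1.05, with 3 bright others at -1.04, -0.71 and -0.38), the core fucosyltransferase FUT8 (-0.64 and -0.72) and the sialyltransferase ST6GAL1 (-0.51, others -0.42 and 0.01). Without shLuc replicate 1, 6 and 5 members of these lists fell, 3 and 2 of them alike.

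In mitochondrial genes the share that fell alike was not below the 6.57% of all genes, and the balance of falls and rises depended on scaling. Of 70 respiratory chain genes, 22 fell and 0 rose, yet after quantile normalization 9 fell and 14 rose. With both hairpins 7 fell alike, among them the complex III subunits UQCRC2 (9.25 and 8.92 against 8.17 to 8.41; second probe set -0.88) and UQCRC1 (8.94 and 8.85 against 7.94 to 8.54), the cytochrome oxidase subunit COX6A1 (11.04 and 11.08 against 10.43 and 10.45, and 10.15 and 10.22) and the complex I subunit NDUFA5 (-0.69). COX6A1 remained called with the hairpin as a random block, and the 4 named falls kept their call after quantile normalization. A dimmer COX6A1 probe set, at a mean of 5.3, read 0.04. The list had 12 falls without shLuc replicate 1, 4 of them alike, and 25 with shHDAC3#2 alone. Of 83 mitochondrial ribosome and import genes 32 fell and 2 rose (HSPE1 and MRPL2, the latter by 0.28), with 6 falling alike, and after quantile normalization 17 fell and 13 rose. The ribosomal proteins MRPL9 (-0.71, second probe set -0.63), MRPL44 (-0.55, -0.71) and MRPL42 (-0.90, -0.65) fell. The counts were 8 and 1 without shLuc replicate 1, and 10 and 3 with shHDAC3#2 alone; 1 gene fell alike without that array and 2 after quantile normalization. In iron-sulfur cluster and iron handling 10 of 35 fell and 1 rose (HMOX1, 0.34, from -0.12 and 0.80), and 4 fell alike: FBXL5, the iron-sensing ubiquitin ligase subunit (-0.62), FDX1, ferredoxin-1 (-0.51, others -0.29 and -0.12), the cluster carrier NFU1 (-0.52) and the transferrin receptor TFRC (-0.40, with another bright probe set at 0.21). After quantile normalization 5 fell and 2 rose. Leaving out shLuc replicate 1 gave 3 falls and 0 rises, 1 gene fell alike, and FBXL5 and NFU1 lost their calls. FBXL5 and FDX1 also lost theirs without probe sets that can cross-hybridize, and TFRC in the mean of its probe sets.

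Genes of RNA processing fell in numbers, by modest amounts. Of 85 splicing factors 34 fell and 0 rose, 15 fell alike and the median was -0.21. HNRNPC, a pre-mRNA binding protein read by several bright probe sets, was at 10.27 and 10.22 in shLuc against 9.54 to 9.81, and its 4 brightest probe sets read -0.52, -0.56, -0.50 and -0.54. DDX46, a helicase of the early spliceosome, fell by 0.56 and SRSF4 by 0.79. TRA2A fell by 0.82 at its brightest probe set but read 0.20, 0.36, 0.58 and 0.09 at the others. Of 57 nuclear pore and transport genes 30 fell and 2 rose, and 12 fell alike. They included the exporter CSE1L (9.13 and 8.90 against 8.23 to 8.45; others -0.49, -0.36 and 0.09), the basket nucleoporin NUP153 (-0.79, with others at 0.08 and 0.32), the scaffold nucleoporin NUP37 (-0.67, another 0.04) and NUP50 (-0.60, with bright others at -0.62, -0.50, 0.03 and -0.37). RANBP1 rose with both hairpins and NUP58 with shHDAC3#1 (1.95) and not shHDAC3#2 (-0.38). Of 64 genes of mRNA decay and microRNA machinery 28 fell, 1 rose (TNRC6C, 0.32) and 7 fell alike, led by the exonuclease XRN1 (-0.58), the exosome subunit EXOSC9 (-0.52) and the deadenylases CNOT8 (-0.45) and CNOT6L (-0.53, others -0.46 and -0.02). These 3 lists had 22, 21 and 22 falls and 5, 4 and 6 rises after quantile normalization, 14, 8 and 9 falls without shLuc replicate 1 and 20, 16 and 11 with shHDAC3#2 alone. Those that fell alike dropped to 2, 3 and 0 without shLuc replicate 1, where XRN1, EXOSC9 and CNOT8 lost their call, and to 5, 8 and 4 after quantile normalization.

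Translation genes fell alike at close to the rate of all genes, 6.57%. Of 48 translation factors 14 fell and 1 rose (EEF1D, 0.27), and after quantile normalization 8 fell and 11 rose, so that the list has no direction that holds under both scalings. MCTS1, a factor of ribosome re-initiation (-0.73), the cap-binding protein EIF4E (-0.46, bright others -0.33, -0.27 and -0.09) and EIF2S1, the alpha subunit of eIF2 (-0.53, others -0.77 and -0.43), fell alike. EIF4E lost its call in the mean of its probe sets and without probe sets that can cross-hybridize. Of 31 tRNA synthetases 12 fell and 0 rose, 2 of them alike: the mitochondrial leucyl enzyme LARS2 (-0.35, second probe set -0.73) and TARS1 (-0.33), which lost its call after quantile normalization (adjusted p = 0.155). After that normalization 4 synthetases fell and 2 rose. LARS2, TARS1 and EIF4E lost their calls without shLuc replicate 1, where 4 genes of either list fell, and 1 translation factor and 0 synthetases fell alike. With shHDAC3#2 alone 2 synthetases fell, while 4 translation factors fell and 6 rose.

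Partners of HDAC3 in the co-repressor complex fell in part. Of 17 genes of the NCoR/SMRT complex and its recruiting factors, 5 fell, HDAC3 as the target of the hairpins among them, and 1 rose. The 3 that fell alike were HDAC3, TBL1XR1 and GPS2. TBL1XR1, the exchange factor of the complex, was at 10.53 and 10.54 in shLuc, 8.91 and 9.20 in shHDAC3#1, and 9.58 and 9.69 in shHDAC3#2. Its change was -1.19 ± 0.08 (limma, adjusted p = 2.52e-09), 4 further bright probe sets read -0.92, -0.62, -1.38 and -0.93, and it remained called with the hairpin as a random block. Its paralog TBL1X did not pass (-0.08, limma, adjusted p = 0.52). GPS2, the inhibitory subunit, was at 7.72 and 7.41 against 6.67 to 7.03 (-0.70 ± 0.12). RBPJ and ZBTB33 fell only in the mean, with -1.16 and -1.10 for shHDAC3#1 and 0.06 and 0.03 for shHDAC3#2, and SIN3A rose by 0.26. Among 18 deacetylases and sirtuins, HDAC9 fell beside the target (-0.34 with shHDAC3#1 and -0.97 with shHDAC3#2; dimmer probe sets between -0.29 and 0.15), HDAC2 (-0.58) and SIRT1 (-0.54) fell without shHDAC3#2 passing, and HDAC7 rose by 0.28. After quantile normalization 4 of these 18 fell and 6 rose.

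Other chromatin regulators fell here and there. No member of the 44 acetyltransferases and bromodomain readers rose, 12 fell and 5 fell alike: KAT2B, the acetyltransferase PCAF (7.29 and 6.95 against 5.81 to 6.29; -1.12 ± 0.14), BRD7 (-0.69, with others at -0.56, -0.44 and, at the dimmest, 0.08), the histone H4 acetyltransferase HAT1 (-0.75), NCOA2 (-0.49) and ING1 (-0.43). After quantile normalization 8 fell and 3 rose. Of 33 Polycomb genes 7 fell, 1 rose (JARID2, 0.30) and 4 fell alike: RYBP of the PRC1 complex (-0.90, others -0.57, -0.34 and -0.03), the histone-binding proteins RBBP4 (-0.69, with a bright other at 0.22) and RBBP7 (-0.51) and the PRC2 subunit EED (-0.44; 0.28 at a dim probe set). After quantile normalization 7 fell and 5 rose. Of 56 remodellers and histone chaperones 15 fell, 3 rose and 7 fell alike, with ANP32E and the methyl-CpG binder MBD2 (-0.95; 0.08, 0.14 and 0.00 at dim probe sets) ahead of NASP (-0.56, a bright other at -0.09) and ANP32B (-0.52, second probe set -0.42). After quantile normalization 12 fell and 8 rose. Of 53 methyltransferases and demethylases 9 fell, 2 rose and 4 fell alike: SUV39H2, which methylates histone H3 lysine 9 (-0.74 with each hairpin), SETD7 (-0.61), KMT2C (-0.46, bright others -0.03, -0.21 and -0.22) and PRMT2 (-0.41, others -0.44 and -0.02). The 17.0% that fell and 3.77% that rose were near the 15.3% and 3.96% of all genes. The share that fell alike was likewise near the 6.57% of all genes. In these 4 lists 5, 5, 8 and 4 members fell without shLuc replicate 1, 3, 3, 4 and 2 of them alike, and NCOA2, KMT2C and PRMT2 lost their calls there. With shHDAC3#2 alone 6, 6, 10 and 5 fell.

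The HDAC3 complex represses some circadian clock genes through REV-ERB in other tissues. Of 44 nuclear receptor and circadian clock genes 4 fell, or 9.09%, against 15.3% of all genes. Rises were called for 5, or 11.4%, against 3.96% of all genes. None of these moved alike: CLOCK (0.48), the D-box factor TEF (0.30), the REV-ERB-beta gene NR1D2 (0.30), BHLHE41 (0.36) and NR4A1 (0.33) were called in the mean and not with shHDAC3#2, and 0 of the list rose without shLuc replicate 1. The clock repressor CRY1 fell alike (5.88 and 5.85 in shLuc, 5.09 and 5.27 in shHDAC3#1, 4.54 and 4.94 in shHDAC3#2), as did BHLHE40 (-0.91) and the glucocorticoid receptor NR3C1 (9.10 and 8.90 against 8.25 to 8.43), the target of dexamethasone in myeloma treatment. Of NR3C1's probe sets 4 were bright and read -0.65, -0.74, -0.79 and -0.39, and all 4 are of the kind prone to cross-hybridize; a dim one read 0.18. PER2 fell in the mean (-0.42) and with shHDAC3#2 (-0.88), and was at 0.04 with shHDAC3#1. After quantile normalization 8 of the list rose and 4 fell.

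In the transcription machinery and Mediator 23 of 85 fell, 3 rose and 9 fell alike. ELL2 led, followed by the Mediator subunit MED21 (6.75 and 6.57 against 5.86 and 5.97, and 5.43 and 5.39; second probe set -0.80), TAF2 of TFIID (-0.82, second probe set -0.26) and cyclin C of the Mediator kinase module (CCNC, -0.50; 0.10 at a second probe set), whose call was lost without shLuc replicate 1 and in the mean of its probe sets. MED20 rose alike, in the same complex as MED21. After quantile normalization 16 fell and 7 rose, without shLuc replicate 1 7 fell and 0 rose, and with shHDAC3#2 alone 14 fell and 3 rose. Under the first 2 of these settings 5 and 2 fell alike. Among 20 long noncoding RNAs 4 fell and 2 rose, but after quantile normalization 2 fell and 4 rose, and with shHDAC3#2 alone 2 fell and 5 rose, so that the list has no direction that holds. CRNDE (8.57 and 8.61 against 7.43 to 7.79; second probe set -0.76) and OIP5-AS1 (-0.82, others -0.53 and -0.07) fell alike and MALAT1 rose alike. DANCR (-0.31) and NORAD (-0.45) fell and ZFAS1 (0.34) rose in the mean only, ZFAS1 at -0.06 with shHDAC3#1 and 0.73 with shHDAC3#2.

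Signalling genes of the B cell receptor, ERK and PI3K lists fell in 21.9%, 20% and 24.5% of cases, against 15.3% of all genes. Of 64 genes of B cell receptor and lymphocyte signalling 14 fell and 3 rose, but 2 fell alike, THEMIS and the RAS activator RASGRP3 (7.4 and 7.05 in shLuc, 6.59 and 6.61 in shHDAC3#1, 5.72 and 5.34 in shHDAC3#2), the latter on a probe set prone to cross-hybridize beside a dim one at 0.05. The calcium channel gene ORAI1 rose alike (5.74 and 5.79 against 6.03 to 6.32; 0.43 ± 0.10), a call lost without shLuc replicate 1. CD38 (0.32) and SH2D1A (0.28) rose in the mean only. In the ERK pathway and its feedback 8 of 40 fell and 1 rose. JUN was at 9.13 and 8.11 in shLuc against 7.04 and 6.90, and 7.69 and 7.61, so that its controls differed by more than the replicates of either hairpin; its other probe sets read -0.05, -0.77 and -0.41 beside -1.31. PHLDA1 fell by 1.47, with others between -0.57 and 0.14, and PTPN11, the phosphatase SHP2, by 0.49, with bright others at -0.08 and 0.10. DUSP5 rose. In the PI3K, AKT and mTOR pathway 13 of 53 fell, 6 of them alike, and the receptor gene IGF1R rose alike (0.57). Those that fell alike included the regulatory subunit PIK3R3 (-0.80), the sestrin SESN3 (-0.73), the folliculin partner FNIP2 (-0.88, others -0.87, -0.54 and 0.00) and TBC1D7 (-0.57), a subunit of the TSC complex. In the B cell, ERK and PI3K lists 10, 6 and 11 members fell after quantile normalization and 7, 1 and 3 rose. Without shLuc replicate 1, 5, 2 and 5 members of these lists fell and 0, 1 and 1 rose, and with shHDAC3#2 alone 7, 8 and 9 fell and 1, 2 and 2 rose. PTPN11 and FNIP2 lost their calls when shLuc replicate 1 was left out, and 1, 2 and 0 members then fell alike.

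Of 66 fatty acid and phospholipid genes 18 fell, 4 rose (ACSL1, 0.42; LIPE, 0.40; FASN, 0.31; PCYT2, 0.25, none called with shHDAC3#2) and 7 fell alike. The elongases ELOVL6 (7.18 and 7.11 against 6.05 to 6.32; a second bright probe set at 0.07) and ELOVL7 (-1.05), the dehydratase HACD2 (-0.77, second probe set -0.48) and the ketoacyl reductase HSD17B12 (-0.79; dim probe sets from -0.01 to 0.15), which lost its call in the mean of its probe sets, were the members named by rule, and each takes part in fatty acid elongation. After quantile normalization 15 fell and 11 rose. Of 50 solute carriers and related genes 13 fell, 1 rose (SLC7A2, 0.36) and 4 fell alike: the neutral amino acid exchanger SLC1A4 (9.59 and 9.45 against 8.99 and 9.15, and 8.26 and 8.48, with bright others at -0.95, -1.07 and -0.50), SLC38A2 (-0.43, others -0.66 and -0.67), SLC7A6 (-0.46, others -0.31 and -0.19) and the sodium pump subunit ATP1B3 (-0.86, others 0.17 and -0.07). After quantile normalization 11 fell and 8 rose. In these lists 7 and 5 members fell without shLuc replicate 1, with 0 rising in either, and with shHDAC3#2 alone 9 and 9 fell. Those that fell alike numbered 3 and 0 without that array and 4 and 1 after quantile normalization, and SLC38A2 and SLC7A6 lost their calls without it.

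Of 42 antioxidant and glutathione genes 16 fell, 2 rose (SOD2, 0.41, and HMOX1) and 7 fell alike. NFE2L2, the transcription factor NRF2 that drives many of these genes, was at 8.77 and 8.53 in shLuc, 7.46 and 7.54 in shHDAC3#1, and 7.96 and 8.11 in shHDAC3#2, while 2 dimmer probe sets read 0.16 and 0.03. TXNIP, the inhibitor of thioredoxin, fell on all 3 probe sets (-1.04, -0.97 and -0.77), the microsomal transferase MGST3 by 0.91 (a bright other at -0.16) and the glutaredoxin GLRX2 by 0.58. HMOX1, a target of NRF2, was at 0.80 with shHDAC3#2 and -0.12 with shHDAC3#1. After quantile normalization 12 fell and 7 rose, without shLuc replicate 1 10 fell and 0 rose, and with shHDAC3#2 alone 8 fell and 2 rose. Under the first 2 of these settings 5 and 2 fell alike.

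Ubiquitin ligase genes of the cullin families and deubiquitinases fell in 33 of 87 cases and rose in 1 (USP36, 0.29), with 17 falling alike and a median of -0.21. The F-box gene SKP2, which marks the cell cycle inhibitor p27 for breakdown, was at 8.51 and 8.40 in shLuc, 6.54 and 6.37 in shHDAC3#1, and 7.81 and 8.08 in shHDAC3#2, and its 3 probe sets read -1.26, -0.70 and -0.81. USP48 (8.37 and 8.03 against 7.37 to 7.58, with bright others at -0.55, -0.83 and -0.15), the F-box gene FBXW11 (-0.54) and DDB2, a damage sensor of a cullin-4 ligase (-0.54), fell by like amounts with either hairpin on the probe sets used. A second bright probe set of FBXW11 read -0.06 with shHDAC3#1 and -0.37 with shHDAC3#2. After quantile normalization 24 fell and 7 rose, without shLuc replicate 1 12 and 0, and with shHDAC3#2 alone 20 and 0. Those that fell alike numbered 8 and 2 under the first 2 of these settings. FBXW11 lost its call without shLuc replicate 1.

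**Figure D4:**
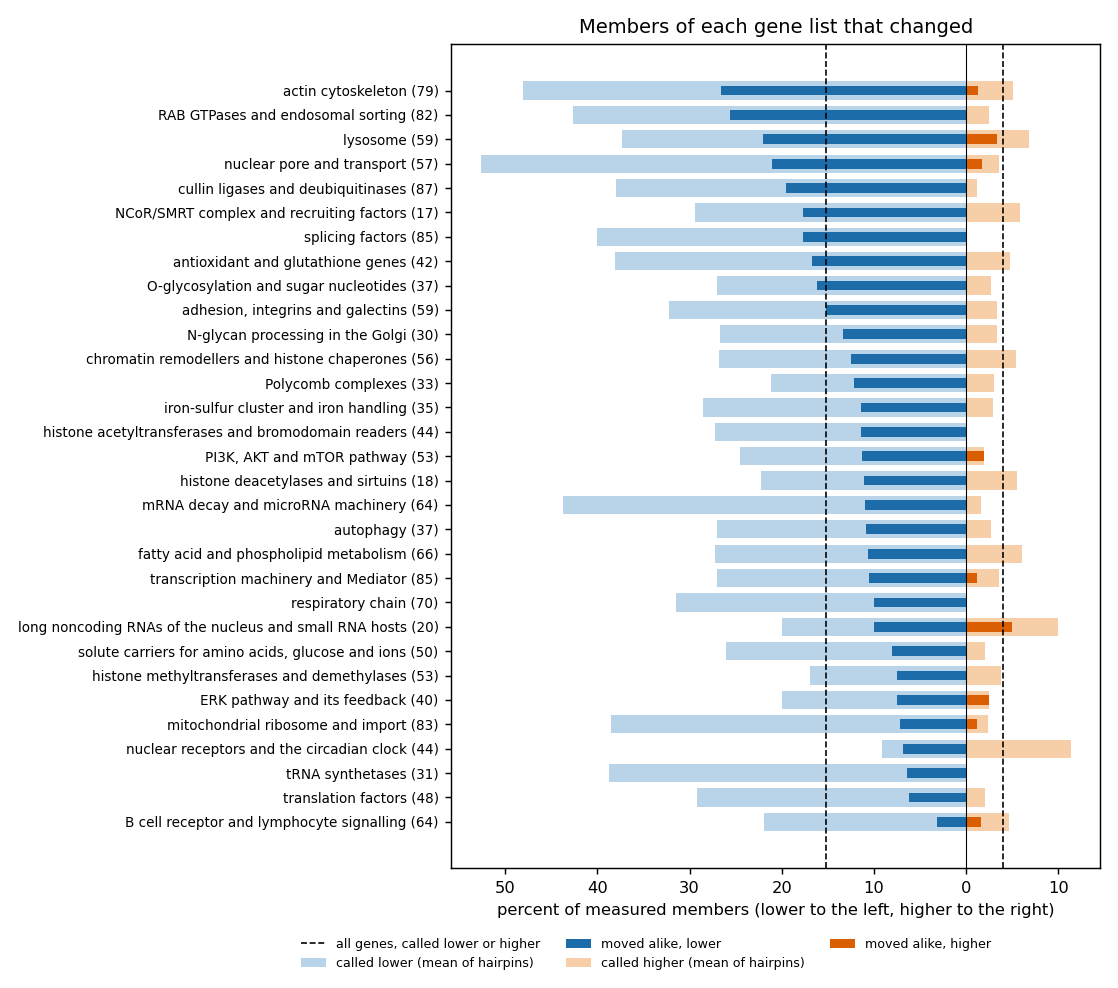
For each of the 31 lists (number of measured members in parentheses), bars show the percent of members called lower (left) and higher (right) in the mean of the hairpins, pale, and moved alike with both hairpins, dark; dashed lines mark the 15.3% lower and 3.96% higher of all genes. The actin, endosomal sorting, lysosome and nuclear pore lists have the longest dark bars, and the nuclear receptor and clock list has the longest pale bar to the right.

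How far these changes were shared with another knockdown was read from the direct difference between HDAC3 and DNMT1 knockdown, which uses no control array. It was called for 1897 genes (9.59%), 710 higher (3.59%) and 1187 lower (6%) with HDAC3 knockdown. Of the 1350 genes moved alike by the HDAC3 hairpins, 478 differed between the knockdowns. Of those that fell, 365 were lower with HDAC3 and 105 higher; of those that rose, 8 were higher and 0 lower. For the others no difference was called, which does not show that the knockdowns act alike. The 1350 genes were selected on the same HDAC3 arrays that enter this difference, and that selection favours its own direction. The counts of 365 against 105 and 8 against 0 are therefore a description and no independent support.

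Among genes higher with HDAC3 knockdown, LAPTM4A (difference 1.65, limma, adjusted p = 5e-12) was at 9.45 to 9.84 in the HDAC3 arrays, 9.48 and 9.30 with shDNMT1#1, and 6.72 and 6.55 with shDNMT1#2, so that the difference came from a single DNMT1 hairpin. PALS1 (1.02) and ZBTB18 (0.59) were likewise lowest with shDNMT1#2, at 4.65 and 4.85 and at 5.5 and 4.98. CLDND1 (1.01) was at 7.06 and 6.69 with shDNMT1#1 and 8.49 and 8.35 with shDNMT1#2, the latter close to the HDAC3 arrays. SNX12 (0.48) was at 6.0 in both shDNMT1#2 arrays and overlapped the HDAC3 arrays with shDNMT1#1. Of these 5, PALS1 and CLDND1 had every HDAC3 array above every DNMT1 array, CLDND1 by a narrow margin.

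Decreases that were stronger with HDAC3 knockdown were better separated, although these genes were ranked by the same difference. NUCB2, the precursor of nesfatin-1, was at 5.06 to 5.79 in the 4 HDAC3 arrays and 6.59 to 6.75 in the 4 DNMT1 arrays, close to the 6.42 and 6.58 of shLuc (difference -1.26, limma, adjusted p = 1e-09), although a dimmer probe set read -0.06 against shLuc. ARFGAP3, a GTPase-activating protein of Golgi vesicle transport, was at 5.55 to 6.94 against 7.47 to 7.84 (-1.32). ISG20, an interferon-induced exonuclease, was at 7.19 to 8.19 against 8.61 to 9.35 (-1.21), with a second probe set at -1.20 against shLuc. KLHL5 (-1.44) and GALNT3 (-1.40) were lowest with shHDAC3#1, and the KLHL5 signals of shHDAC3#2, 6.49 and 6.74, overlapped the DNMT1 range. TBL1XR1 was also lower than with DNMT1 knockdown (-1.02), at 10.59 and 10.62 with shDNMT1#1 and 10.15 and 10.09 with shDNMT1#2. LGALS1 differed by -1.12 in the mean but was at 10.90 and 11.11 with shDNMT1#1 and 8.61 and 8.52 with shDNMT1#2. No difference was called for OSTM1 (0.02), RRP1B (0.21), C11orf54 (-0.12), MAL2 (-0.16) or NPNT (-0.01). HSD17B12 (0.89), PTPN11 (0.80), SESN3 (0.79) and TMEM41B (0.55) were higher with HDAC3 than with DNMT1 knockdown although they fell against shLuc.

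**Figure D5:**
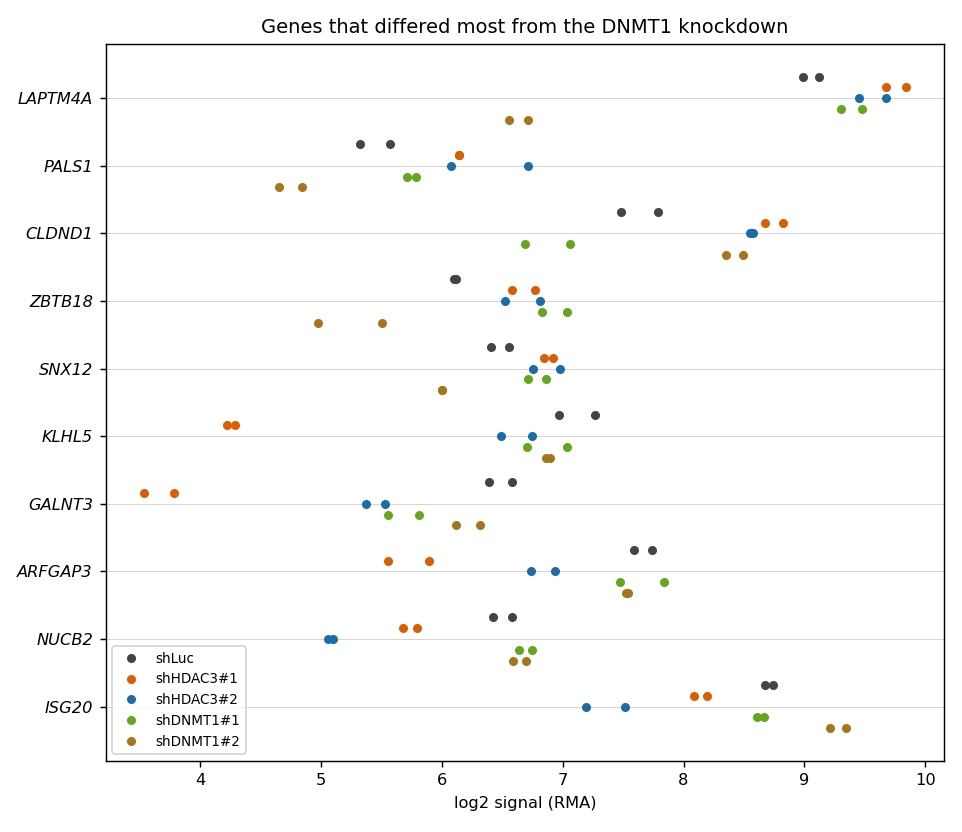
Log2 signals in all 10 arrays are shown for the 5 genes highest and the 5 lowest in HDAC3 knockdown against DNMT1 knockdown among genes moved alike by the HDAC3 hairpins; colours mark the 5 groups. NUCB2, ARFGAP3 and ISG20 have every HDAC3 array below every DNMT1 array, whereas the DNMT1 hairpins themselves lie far apart for LAPTM4A, PALS1, CLDND1 and ZBTB18.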

How the data were processed

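Per the submitters' processing notes the authors ran RMA, which corrects background, equalizes probe distributions and summarizes probes, and they deposited the resulting log2 signal of 54675 probe sets per array. No source used here gives its version, or says that the 10 arrays were processed together. The platform annotation gave a single gene symbol for 41091 probe sets that were not controls, several for 1801 and none for 11777. In the RefSeq table of GRCh38.p14, 41043 of the first kind were found and 0 changed symbol. For each of 19775 genes the probe set brightest on average over the 10 arrays was used, with no filter on dim ones. A probe set was called bright at a mean of 5 or more.

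A limma 3.58.1 model in R 4.3.3 (lmFit, eBayes with a variance trend) held a mean for each of the 5 groups, with 5 residual degrees of freedom and no covariate. Contrasts were two-sided, with Benjamini-Hochberg adjustment across the 19775 genes, and called under 0.05. SEs are limma's and hold no variation between hairpins. Data were simulated with 100 genes changed alike by 0.5 and 100 by 1 with both hairpins. Of these, 84% of changes of 0.5 and 100% of changes of 1 were called. The rule for moving alike was met by 49% and 100%. Unchanged genes made up 13 of 197 calls and 0 of 149 that moved alike. The simulated noise was independent between arrays and held no hairpin-specific change, outlying array or effect of scaling. Such rates therefore say nothing of errors from those sources in the real arrays.

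Genes were named by rule: the 15 largest increases and decreases by the smaller hairpin change, up to 4 members of each list moved alike, the 8 highest and lowest with agreeing probe sets (7 rose), and the 5 highest and lowest against DNMT1 knockdown. The comparison, its members and the gene lists were chosen with earlier results of these data known. Alternatives covered probe set choice, dim genes, scaling, the variance model, arrays and blocks. The number of arrays limits the precision.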

Additional observations from a re-analysis of the deposited data

Results flagged for a closer look

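Of 148 named genes, 45 changed by different amounts with the 2 hairpins by limma's test of the difference (adjusted p under 0.05). By the same test 2492 of all 19775 genes (12.6%) and 386 of the 1350 moved alike differed. The named genes were chosen by their changes in these same data, so their count is no trait of theirs. Differences are given here as shHDAC3#1 minus shHDAC3#2 on the log2 scale. The 45 take in genes that fell with both hairpins and genes that rose with both. A negative value therefore marks a deeper fall or a smaller rise with shHDAC3#1. The widest gaps were those of KLHL5 (-2.36), the glycosylation genes GALNT3 (-1.79) and UAP1 (-1.53), the F-box gene SKP2 (-1.49) and the Golgi gene ARFGAP3 (-1.11). Next came ATP1B3 (-1.07), TPD52 (-1.0), MRPL42 (-0.99), TXNIP (-0.96), C11orf54 (-0.88), GUSB (-0.74), ANP32E (-0.72), JUN (-0.68), SRSF4 (-0.65) and DUSP5 (-0.63).

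Smaller differences of the same sign were those of BHLHE40 (-0.59), TBL1XR1 (-0.58), ELOVL7 (-0.56), NFE2L2 (-0.54), TAF2 (-0.53), CORO1C (-0.50), NDFIP2 (-0.49), MCTS1 (-0.49), APOBEC3B (-0.47), UQCRC1 (-0.44), RAB4A (-0.43), ST6GAL1 (-0.34), EIF2S1 (-0.32) and IMPDH1 (-0.30).

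Of the opposite sign, RASGRP3 (1.07) led, with the exonuclease ISG20 (0.79) and the ESCRT genes VPS36 (0.76) and VPS37A (0.66). PHLDA1 (0.71), OSTM1 (0.71), FNIP2 (0.70), SLC1A4 (0.69), NUCB2 (0.66), HDAC9 (0.63), MBD2 (0.62), HSD17B12 (0.53), MED21 (0.51), CRY1 (0.44), ITGA4 (0.37) and RBBP7 (0.31) followed. OSTM1 rose more with shHDAC3#1, and the others in this group fell more with shHDAC3#2.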

How the results depend on the processing

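Without probe sets of kinds that can cross-hybridize, which leaves 17098 genes, 2501 genes were called, 496 higher and 2005 lower, and 888 moved alike, 33 higher and 855 lower. A further quantile normalization gave 1955 higher genes and 246 moved alike higher, median centring 417 higher genes, and a fit to the 6 arrays alone 1286 and 88. The mean of all probe sets of a gene left 849 genes moved alike lower. With the hairpin as a random block there were 73 calls, 1 higher and 72 lower, and HDAC3 kept its change of -1.18 with an adjusted p of 0.108. With shHDAC3#2 alone, an alternative chosen after seeing the data, there were 2146 calls, 259 higher and 1887 lower. Neither of these gives a count moved alike. Leaving out 1 array at a time gave 1410 to 4022 calls, 43 to 1199 higher and 1367 to 3099 lower, and 486 to 1470 moved alike, 15 to 186 higher and 471 to 1284 lower. The lowest of these counts came without shLuc replicate 1, and so did the loss of 24 of the 147 named calls. The replicate numbers did not pair the arrays (correlations of deviations -0.20, -0.10 and 0.14); the replicate block gave 3416 calls and 1242 moved alike. The crossed pairing, also added after seeing the data, gave 3476 and 1257. Without cross-hybridizing kinds the sign turned for ANXA2 (0.30), NR3C1 (0.18), LGALS3 (0.18), RASGRP3 (0.054), EED (0.28), UGP2 (0.0047) and MBD2 (0.0028), each read there by another probe set, and TRA2A turned (0.083) in the mean of its probe sets. The causes of these changes were not tested.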
